A study of Rattus norvegicus with 25 samples.

Results

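A set of 6 protein-coding genes, out of the 29516 gene IDs in the deposited table, holds the activity-regulated immediate early genes described here. They were taken by Ensembl ID: Egr1 (ENSRNOG00000019422), Egr2 (ENSRNOG00000000640), Nr4a1 (ENSRNOG00000007607), Fos (ENSRNOG00000008015), Junb (ENSRNOG00000042838) and Arc (ENSRNOG00000043465). All 6 were present, and all 6 passed the filter on low values, Egr2 only through libraries of the older ages. RNA came from prefrontal cortex of wild-type (WT) Wistar rats, an outbred laboratory strain, at 5 postnatal ages: day 8 (P8), day 14 (P14), day 21 (P21), day 35 (P35) and day 70 (P70). No transgene or treatment is named for any age. There were 5 libraries per age (25 in total), and the design asks how expression differs between these ages. Nothing in the labels says that each library came from its own animal, so the spread that p-values rest on is that between libraries and may be technical. The labels name neither sex nor time of day, handling or the way the tissue was taken.

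Immediate early genes are transcribed within minutes of a stimulus, from transcription factors already present in the cell. In cortical neurons synaptic input raises calcium and activates kinases, which act on CREB bound to cyclic AMP response elements (CRE) and on serum response factor bound to CArG boxes. Most products are transcription factors with short-lived transcripts: Egr1 and Egr2 are zinc finger proteins, Nr4a1 is an orphan nuclear receptor, and Fos and Junb are basic leucine zipper proteins that pair to form AP-1. Arc instead encodes a cytoskeleton-associated protein that reaches dendrites and acts in the removal of AMPA receptors from synapses. Because the transcripts turn over quickly, their level in a tissue sample is commonly read as a record of recent activity.

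Promoter windows are shown because the 6 genes moved together across the libraries, and because both classes of element named above can be looked for in them. RefSeq sequences of build GRCr8, which is not the rn4 build of the deposited values, were matched by symbol for 4 of the 6 genes, and not for Fos and Arc. Each line gives the 250 bases before 1 annotated start, 5′ to 3′ on the strand of the gene. Capitals mark the CRE core TGACG or its reverse complement CGTCA, the CArG box, the TATA box TATAAA and the EGR site GCGGGGGCG, each searched on both strands.
Egr1, GRCr8 chr18:26736828-26737077, plus strand: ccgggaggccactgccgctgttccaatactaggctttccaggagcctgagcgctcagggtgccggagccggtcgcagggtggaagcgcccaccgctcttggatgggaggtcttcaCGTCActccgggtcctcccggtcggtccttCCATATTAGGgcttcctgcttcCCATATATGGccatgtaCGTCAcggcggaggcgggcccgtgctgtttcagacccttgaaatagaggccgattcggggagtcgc
Egr2, GRCr8 chr20:21054442-21054691, minus strand: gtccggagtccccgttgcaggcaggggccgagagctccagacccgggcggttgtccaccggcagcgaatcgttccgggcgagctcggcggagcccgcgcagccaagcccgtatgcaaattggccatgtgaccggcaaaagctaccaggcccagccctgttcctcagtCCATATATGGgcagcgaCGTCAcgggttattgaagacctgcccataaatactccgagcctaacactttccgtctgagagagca
Nr4a1, GRCr8 chr7:134259888-134260137, plus strand: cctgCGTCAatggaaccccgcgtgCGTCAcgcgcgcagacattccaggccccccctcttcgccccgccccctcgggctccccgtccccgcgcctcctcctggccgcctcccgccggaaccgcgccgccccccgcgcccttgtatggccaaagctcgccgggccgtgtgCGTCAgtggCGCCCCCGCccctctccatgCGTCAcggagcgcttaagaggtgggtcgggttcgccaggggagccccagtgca
Junb, GRCr8 chr19:40080876-40081125, plus strand: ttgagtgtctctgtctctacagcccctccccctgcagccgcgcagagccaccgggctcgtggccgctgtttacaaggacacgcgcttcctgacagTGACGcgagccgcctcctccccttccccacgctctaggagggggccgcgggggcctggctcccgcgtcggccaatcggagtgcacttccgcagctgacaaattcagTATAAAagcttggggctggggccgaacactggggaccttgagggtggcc
The CRE core lay in all 4 windows, against 18.2% of the 33469 RefSeq promoter windows of the same length. Nr4a1 held 4 copies and Egr1 held 2, and 3.98% of all windows held 2 or more. CArG boxes lay at positions -105 to -96 and -83 to -74 of Egr1, counted back from the start, and at -83 to -74 of Egr2, against 1.497% of all windows with at least 1. In both Egr1 and Egr2 the CArG box at -83 was followed by a CRE core at -66 to -62. Junb alone held TATAAA (12.9% of all windows), and Nr4a1 alone held the EGR site GCGGGGGCG (2.45%). The full CRE TGACGTCA, which contains the core, and the other EGR site, GCGTGGGCG, were in 0 of the 4 windows (1.59% and 0.478% of all windows). These matches describe letters only.

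The table gives FPKM, reads scaled to transcript length and to the mapped reads of the library, a unit meant for setting genes and libraries side by side. FPKM totals were not equal, from 472548 to 1649378 per library, so comparisons between ages depend on the scaling, and other scalings are given below. Whole reads could be recovered for all 6 genes, since each value times the relative depth of its library was a whole multiple of 1 read within 0.05 reads. Relative depth was 0.386 to 1.31 times that of the median library, lowest in P21 replicate 5 and P70 replicate 2. Median reads per library were 684 for Egr1, 612 for Junb, 396 for Arc, 205 for Nr4a1, 87 for Fos and 38 for Egr2, and the lowest single value was 3 reads, for Egr2 in P8 replicate 4. An exact Poisson interval on those 3 reads (95%, counting error only) runs from 0.00800 to 0.113 FPKM. The table does not pair IDs with gene names, and 0 IDs matched the reference gene table, so markers of the tissue, of its cell types and of stress, and other genes of the pathway, were not analysed here. Tissue was sampled in bulk, and a smaller share of responding cells and less RNA per cell cannot be told apart.

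All 6 genes were lowest at P8 and higher at every later age. The 5 P8 libraries lay below all 5 libraries of P14, of P21, of P35 and of P70 for each of the 6 genes. Of all 14128 gene IDs tested, 9.51%, 14.9%, 15.2% and 15.5% showed that separation upward from P8 to the 4 later ages. Over the 5 ages together all 6 genes were called (limma moderated F-test, adjusted p from 2.84e-11 for Egr1 to 0.00185 for Egr2), as were 55.5% of the gene IDs tested. Here and below, called means an adjusted p under 0.05 over all gene IDs tested, with log2 changes on the log2(FPKM + 0.5) scale, which understates the change of low genes. Over all gene IDs tested the median log2 change was -0.06 from P8 to P14 and -0.16 from P8 to P70, and for the 6 genes it was 1.37 and 1.54.

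**Figure D1:**
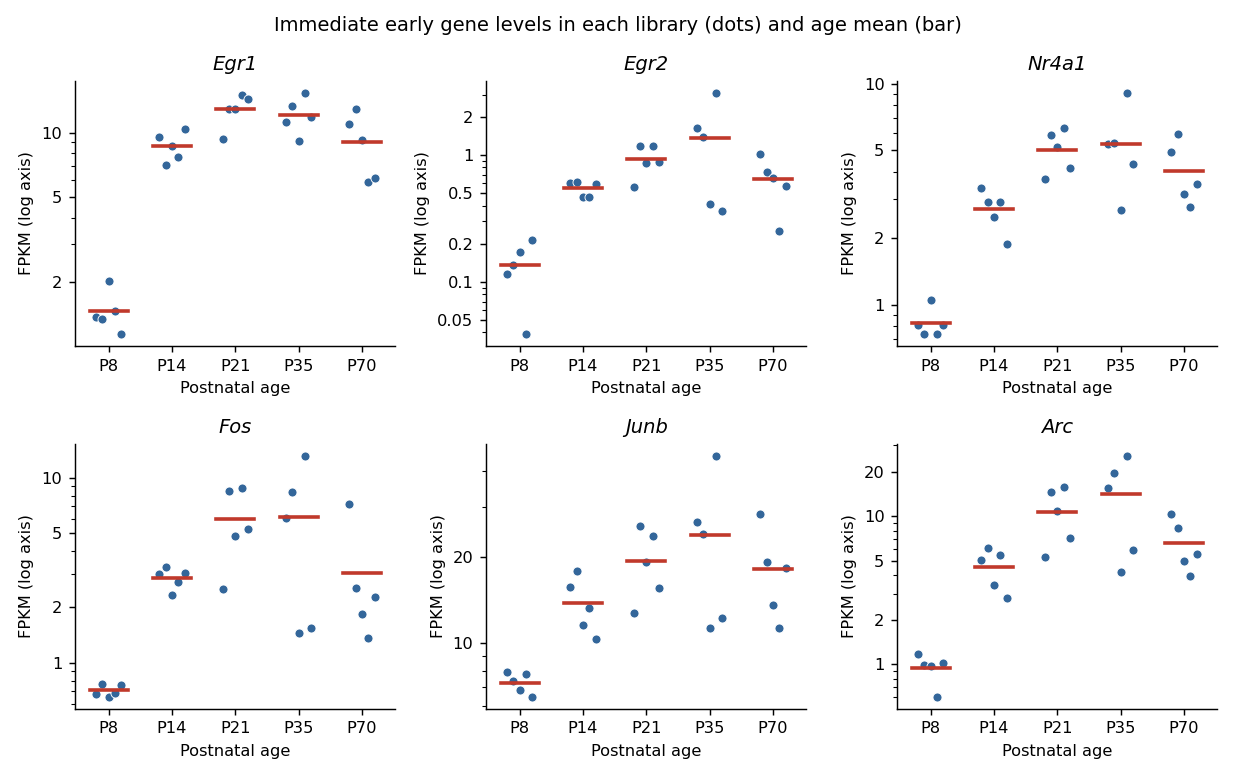
FPKM of each gene (log axis) in the 5 libraries of each age (dots, offset sideways by replicate number), with the age mean as a bar. The P8 dots lie below all dots of the later ages in every panel, and the dots fan out from P21 on for Fos, Junb and Arc, most of all at P35.

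Between P8 and P14 mean FPKM went up 1.89-fold (Junb) to 5.91-fold (Egr1), and 5 of the 6 genes were called (limma), all upward, against 13.6% of gene IDs tested that rose. Egr1, the zinc finger factor often used as a marker of neuronal activity, was at 1.37, 1.34, 2.02, 1.46 and 1.14 FPKM in P8 replicates 1 to 5. At P14 the 5 libraries held 9.55, 7.05, 8.68, 7.67 and 10.4 FPKM. The means were 1.47 ± 0.332 and 8.68 ± 1.37 FPKM (SD, n = 5 each), a log2 change of 2.22 ± 0.18 (SE; limma adjusted p = 4.91e-09). This was the largest change of the set at this step, and the lowest P14 library, at 7.05 FPKM, was far above the highest P8 library, at 2.02 FPKM.

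Its relative Egr2 was the least abundant of the set, the lowest of the 6 genes in 25 of 25 libraries. It reached the 1 FPKM of the filter only in some libraries of P21, P35 and P70, so it was tested through ages where it was high. It was at 0.115, 0.135, 0.174, 0.0388 and 0.213 FPKM at P8, from 3 to 17 reads. P14 libraries held 0.599, 0.619, 0.466, 0.466 and 0.596 FPKM. The groups did not overlap and the means differed 4.06-fold, but the log2 change of 0.73 ± 0.28 (SE) missed the threshold (limma adjusted p = 0.0508). With only the P8 and P14 libraries in the fit, which leaves out the wide spread of P35, the same change was called (limma adjusted p = 0.00322). It was also called without any 1 of P35 replicates 3, 4 and 5 and P70 replicate 4 (limma adjusted p from 0.0167 to 0.0463). A pseudocount of 0.1, quantile normalization, median-of-ratios scaling and a fit with no trend gave the call as well (limma adjusted p = 0.00816, 0.0354, 0.0382 and 0.0472). Equal FPKM totals, a pseudocount of 1, no filter and a random block by the first number of the library titles did not (limma adjusted p = 0.142, 0.103, 0.0715 and 0.148).

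Nr4a1, the nuclear receptor, was at 0.810, 0.737, 1.05, 0.741 and 0.810 FPKM at P8. By P14 it had reached 3.37, 2.92, 2.50, 2.92 and 1.89 FPKM. Every P14 library was above every P8 library, and the log2 change was 1.26 ± 0.22 (SE; limma adjusted p = 0.000121).

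The AP-1 partners Fos and Junb differed in level and in size of rise. Fos was at 0.679, 0.765, 0.654, 0.681 and 0.756 FPKM at P8 and at 3.01, 3.29, 2.33, 2.72 and 3.05 FPKM at P14. Its log2 change was 1.48 ± 0.44 (SE; limma adjusted p = 0.0128). The highest to lowest ratio of Fos was 1.17 at P8, on 25 to 32 reads per library, and 1.41 at P14, on 87 to 161 reads. Junb, which had the highest FPKM of the set in 24 of 25 libraries, started from 7.90, 7.35, 6.83, 7.81 and 6.49 FPKM. It rose to 15.8, 17.9, 11.5, 13.3 and 10.3 FPKM, a log2 change of 0.85 ± 0.29 (SE; limma adjusted p = 0.0303). The call for Junb was lost with FPKM totals made equal (adjusted p = 0.111) and without any of 5 single libraries (P8 replicates 2, 3 and 5, P14 replicates 1 and 2; limma adjusted p up to 0.0711). Some libraries of an age share the first number of their title, and with that number as a random block the calls for Fos and Junb were both lost (limma adjusted p = 0.0562 and 0.110). The SE of each change rests on the spread of all 5 ages, including the wide one of P35. With only the P8 and P14 libraries in the fit, Fos and Junb were both called (limma adjusted p = 1.08e-05 and 0.00153).

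Arc, the only gene of the set whose product is not a transcription factor, was at 1.17, 0.985, 0.981, 0.606 and 1.02 FPKM at P8. At P14 it was at 5.06, 6.08, 3.43, 5.48 and 2.80 FPKM, a log2 change of 1.77 ± 0.38 (SE; limma adjusted p = 0.00107). The lowest P14 library was above the highest P8 library.

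On the log2 FPKM scale the genes did not rise in proportion. For each of the 15 pairs, the log2 ratio of the 2 genes within a library was compared between P14 and P8 on FPKM as deposited, with nothing added, by an exact two-sided permutation test, whose smallest p is 0.00794. The ratio differed for 7 of 15 pairs after adjustment over the 15. Junb rose less than each of the other 5 genes, by 0.80 log2 units against Nr4a1 up to 1.68 against Egr1 (5 pairs, exact p = 0.00794 and adjusted p = 0.0198 for each). For Egr2 this depends on the scale, since on log2(FPKM + 0.5) its change (0.73) was smaller than that of Junb (0.85). Nr4a1 rose less than Egr1, by 0.88 log2 units (exact permutation p = 0.00794, adjusted p = 0.0198), and less than Arc, by 0.54 (exact permutation p = 0.0159, adjusted p = 0.0340). Among Egr1, Egr2, Fos and Arc the differences ran from 0.02 to 0.56 log2 units in size, and these 6 pairs did not pass (exact permutation tests, adjusted p from 0.0893 to 0.976). Nor did Nr4a1 against Fos and against Egr2, with differences of 0.32 and 0.51 (exact permutation tests, adjusted p = 0.291 and 0.429). These ratio tests were added after the values had been seen.

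**Figure D2:**
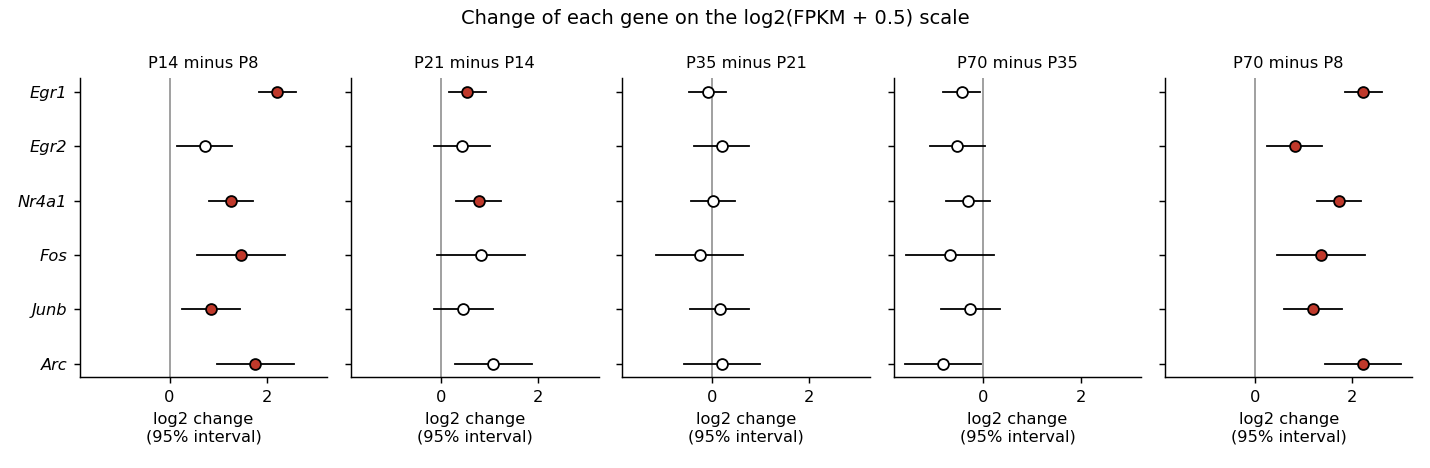
Log2 change of each gene for the 4 steps between neighbouring ages and for P70 minus P8 (points, with 95% intervals from the fit), filled red where the change was called. Filled points number 5 for P14 minus P8, 2 for P21 minus P14 and 6 for P70 minus P8, and the intervals for P35 minus P21 all include 0.

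Between P14 and P21 all 6 means went up again, but only Egr1 and Nr4a1 were called (2 of 6, limma; 5.17% of gene IDs tested rose). Nr4a1 reached 3.72, 5.83, 5.19, 6.28 and 4.15 FPKM at P21, all above the P14 libraries (3.79% of gene IDs tested separated this way), with a log2 change of 0.78 ± 0.22 (SE; limma adjusted p = 0.0166). Egr1 reached 9.37, 12.9, 12.9, 15.1 and 14.3 FPKM, with a log2 change of 0.54 ± 0.18 (SE; limma adjusted p = 0.0435). A single library, P21 replicate 1, overlapped the P14 range for Egr1. The Egr1 call was close to the threshold and was lost without any 1 of 11 libraries (P8 replicates 1, 2 and 4, P14 replicates 2, 3 and 4, P21 replicates 2, 3, 4 and 5, and P35 replicate 1; limma adjusted p up to 0.110). With FPKM totals made equal both calls were lost (adjusted p = 0.619 for Egr1 and 0.384 for Nr4a1), a scaling that moved the median change of all gene IDs in this step from -0.09 to -0.38. Both were also lost when libraries sharing a first title number were blocked (limma adjusted p = 0.148 for Egr1 and 0.0770 for Nr4a1).

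Fos and Arc had larger but more variable steps. Fos at P21 was at 2.50, 8.44, 4.87, 8.79 and 5.32 FPKM, a log2 change from P14 of 0.84 ± 0.44 (SE; limma adjusted p = 0.204). Arc was at 5.31, 14.5, 10.9, 15.6 and 7.11 FPKM, a log2 change of 1.08 ± 0.38 (SE; limma adjusted p = 0.0518). In both genes replicate 1 lay within the P14 range and replicates 2 and 4 were well above it. Arc was called in this step under median-of-ratios scaling (limma adjusted p = 0.0212) and under quantile normalization (limma adjusted p = 0.0228). The same call came with only the P14 and P21 libraries in the fit (limma adjusted p = 0.0413). A filter of a mean of at least 5 FPKM gave it too (limma adjusted p = 0.0485). Without any 1 of P21 replicates 1 and 5, P35 replicates 2 to 5 and P70 replicate 1 it was called too. The limma adjusted p then ran from 0.0270 to 0.04998. Arc was not called with FPKM totals made equal (limma adjusted p = 0.332). The same held when libraries sharing a first title number were blocked (limma adjusted p = 0.159). Nor was Arc called with no filter, with no trend or with a pseudocount of 0.1 or 1. Egr2 at 0.560, 1.19, 0.869, 1.18 and 0.885 FPKM and Junb at 12.8, 25.8, 19.2, 23.7 and 15.5 FPKM were also lowest in replicate 1 and highest in replicates 2 and 4, with log2 changes of 0.44 ± 0.28 and 0.46 ± 0.29 (SE; limma adjusted p = 0.303 and 0.3002).

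From P21 to P35 none of the 6 genes was called in either direction (0 of 6 by limma), against 0.545% of gene IDs called upward and 1.08% called downward. At an unadjusted p under 0.05 (limma) there were also 0, and the share of all gene IDs at that threshold was not counted. What differed at P35 was the range within the age. Fos was at 6.09, 8.34, 1.45, 13.2 and 1.54 FPKM, 9.07 times from lowest to highest. Replicates 3 and 5 were below every P14 library, while replicate 4 was above every other library of the study. Egr2 showed the same split, at 1.64, 1.39, 0.413, 3.09 and 0.360 FPKM. Arc was at 15.4, 19.4, 4.20, 25.5 and 5.90 FPKM, with replicates 3 and 5 inside the P14 range. Junb was at 26.6, 24.1, 11.3, 45.3 and 12.2 FPKM, and Nr4a1 at 5.31, 5.41, 2.67, 9.06 and 4.33 FPKM. Egr1 kept a narrow range, 11.2, 13.3, 9.17, 15.3 and 11.8 FPKM, 1.67 times from lowest to highest. The intervals of the P35 minus P21 change ran from -1.16 to 0.64 for Fos and from -0.47 to 0.29 for Egr1. They rest on the spread pooled over all 5 ages, and changes of either sign within them remain compatible with these libraries.

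Between P35 and P70 all 6 means were lower at P70, by log2 changes of -0.27 (Junb) to -0.83 (Arc). None was called (0 of 6 by limma), against 0.0425% of gene IDs tested that were called upward and 0.0779% called downward. At an unadjusted p under 0.05 (limma) there were 2, Egr1 and Arc, but the share of all gene IDs at that threshold was not counted. P70 libraries held 10.99, 13.0, 9.23, 5.89 and 6.16 FPKM of Egr1, and 10.3, 8.30, 4.99, 3.93 and 5.57 FPKM of Arc. Fos was at 7.26, 2.55, 1.84, 1.35 and 2.26 FPKM, with replicate 1 far above the other 4. The AP-1 partner Junb was at 28.3, 19.3, 13.6, 11.3 and 18.4 FPKM, and also highest in replicate 1 and lowest in replicate 4. Nr4a1 was at 4.90, 5.90, 3.16, 2.75 and 3.51 FPKM, and Egr2 at 1.01, 0.735, 0.664, 0.252 and 0.574 FPKM. The P70 libraries of every gene overlapped those of P35. Of all gene IDs tested, 0.68% had every P70 library above every P35 library, and 0.34% had every P70 library below. Without P35 replicate 4 the change of Junb turned from -0.27 to 0.0027. P70 also did not differ by a call from P21 (0 of 6 by limma, against 2.43% of gene IDs called upward and 3.68% downward). Nor did it differ by a call from P14 (0 of 6 by limma, against 11.2% called upward and 23.5% downward). An unadjusted p under 0.05 (limma), again with no share over all gene IDs, was reached by 2 against P21, Egr1 and Fos, and by 1 against P14, Nr4a1. Egr1 was called lower at P70 than at P21 without P21 replicate 1 (limma adjusted p = 0.0480) or without P70 replicate 2 (limma adjusted p = 0.0291).

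Over the whole span the rise from P8 remained at P70. All 6 genes were called upward in P70 minus P8 (limma), against 19.9% of gene IDs tested. The log2 changes were 2.23 ± 0.18 (SE) for Egr1, 2.23 ± 0.38 for Arc, 1.73 ± 0.22 for Nr4a1, 1.36 ± 0.44 for Fos, 1.20 ± 0.29 for Junb and 0.82 ± 0.28 for Egr2. Adjusted p-values (limma) ran from 4.44e-10 for Egr1 to 0.0144 for Egr2. The Egr2 call was lost when libraries sharing a first title number were blocked (limma adjusted p = 0.0572) and with equal FPKM totals (adjusted p = 0.0515). All 6 also rose from P8 to P21 (18.3% of gene IDs) and from P8 to P35 (19.2% of gene IDs), with Arc showing the largest change, 3.06 ± 0.38 (SE; limma adjusted p = 3.79e-07), at P35. Against P14, 2 of 6 were called higher at P35, Nr4a1 and Arc (limma adjusted p = 0.00853 and 0.0126; 9.34% of gene IDs rose).

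Ordered by mean FPKM, 5 of the 6 genes ran P8, P14, P70, P21, P35 from lowest to highest, and Egr1 ran P8, P14, P70, P35, P21. For Fos the last step has opposite signs on the 2 scales, with mean FPKM higher at P35 than at P21 (6.12 and 5.98) and the log2 change at -0.26. From P14 to P70 its mean FPKM was likewise higher (2.88 and 3.05) and its log2 change -0.12. In every gene the libraries of P8 and P14 did not overlap, while those of all other neighbours in the order overlapped and were not called (limma adjusted p of at least 0.106). Among the 4 later ages only the pairs named above were called, P21 above P14 for Egr1 and Nr4a1 and P35 above P14 for Nr4a1 and Arc. Arc was below Egr1 in every library of P8, P14 and P70, and above it in 2 of 5 libraries at P21 and in 3 of 5 at P35.

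Spread between libraries of an age exceeded that of 4.25% (Fos) to 75.9% (Egr1) of gene IDs tested at P8, and for 5 of the 6 genes it was widest at P35. On the log2 scale the SD of Fos over 5 libraries was 0.06 at P8 and 0.16 at P14. It then reached 0.66 at P21, 1.27 at P35 and 0.79 at P70. The median SD of all tested gene IDs stayed between 0.15 (P8) and 0.24 (P14). At P35 the SD of Fos exceeded that of 98.9% of gene IDs tested, Arc (1.07) 97.9%, Egr2 (0.87) 96.3%, Junb (0.82) 95.7% and Nr4a1 (0.57) 93.0%, while Egr1 (0.27) exceeded 65.7%. Egr1 had its widest spread at P70, with an SD of 0.48 that exceeded 90.4% of gene IDs. Adding 0.5 FPKM compresses the SD of genes with low values, but the coefficient of variation in FPKM showed the same contrast for Fos, 7.09% at P8 and 80.7% at P35. For Egr2 at P8 it was 48.6%, from 3 to 17 reads. Without P35 replicate 4 the P35 SD was still 1.13 for Fos, 1.01 for Arc, 0.69 for Egr2, 0.62 for Junb and 0.42 for Nr4a1 (n = 4). These spreads are descriptions without a test.

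**Figure D3:**
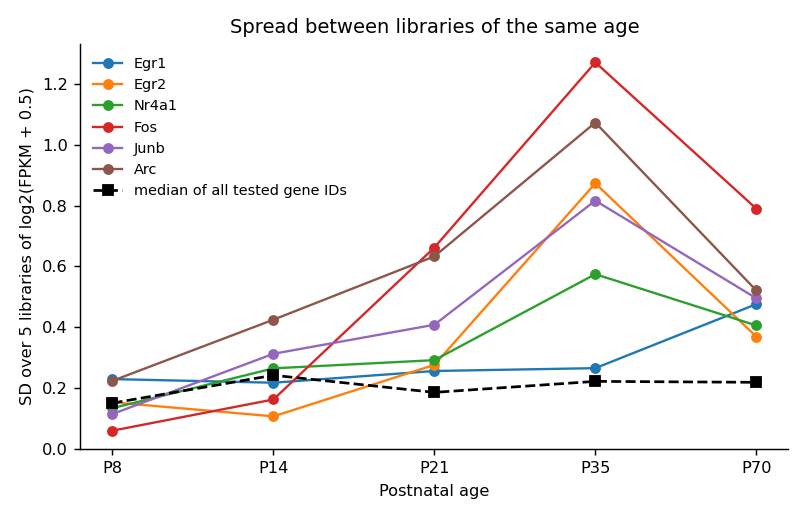
SD over the 5 libraries of each age of log2(FPKM + 0.5) for each gene (coloured lines), with the median SD of all 14128 tested gene IDs (dashed black line). Fos, Arc, Egr2, Junb and Nr4a1 peak at P35, while Egr1 stays near the dashed line up to P35.

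From P21 on, the same libraries were often the highest or the lowest of their age for several genes. P35 replicate 4 was the highest P35 library for all 6 genes, P21 replicate 1 the lowest P21 library for all 6, and P70 replicate 4 the lowest P70 library for all 6. P35 replicate 3 was the lowest at its age for 5 of the 6. At P8, 4 different libraries were highest for at least 1 gene. Reads per library were few there, 3 to 17 for Egr2, 25 to 32 for Fos and 41 to 71 for Nr4a1. Counting error therefore limits what the order of the P8 libraries can show. At P14, replicate 2 was highest for 4 genes but lowest for Egr1, and replicate 5 was highest for Egr1 but lowest for Nr4a1, Junb and Arc. Deviations from the age means over the 25 libraries had Pearson's r of 0.455 to 0.929 in the 15 pairs of genes, and all 15 passed a permutation test within ages (100000 resamples, two-sided, Benjamini-Hochberg adjusted p from 3.00e-05 to 0.0444 over the 15). Spearman's rho was 0.363 to 0.917, and 13 of 15 passed (permutation adjusted p from 7.50e-05 to 0.112), all but Egr1 with Arc and with Junb.

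The 10 pairs among Egr2, Nr4a1, Fos, Junb and Arc were the tighter ones, with r of 0.766 (Fos and Nr4a1) to 0.929 (Arc and Junb) and rho of 0.684 to 0.917. In the 5 pairs with Egr1, r was 0.455 (with Junb) to 0.639 (with Nr4a1) and rho 0.363 to 0.573. Whether Egr1 differs from the other genes in this was not tested. Without the 2 libraries farthest from the median of the first gene of a pair, r was 0.671 to 0.919 in the 10 pairs and 0.412 to 0.588 in those with Egr1, and 13 of 15 passed (permutation, adjusted p under 0.05). Without P35 replicate 4, r was 0.375 to 0.918 and 13 of 15 passed.

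The labels do not say what the first number in a library's title stands for. Within the 9 such numbers with more than 1 library (19 libraries), r was 0.636 to 0.947, but only 1 of 15 pairs passed when values were permuted within those numbers (permutation adjusted p from 0.0395 to 0.280). Each of these numbers holds few libraries, so few rearrangements exist, and a pair that failed was not shown to be unrelated within them. The P35 libraries with the lowest and the highest values of 5 genes, replicates 3 and 4, carry the same first title number. The mean standardised deviation of the 6 genes had r = -0.0812 with log2 relative depth (permutation p = 0.709; rho = 0.00154, permutation p = 0.996) and r = 0.113 with the log2 FPKM total (permutation p = 0.607; rho = 0.0477, permutation p = 0.827). With how many gene IDs reached 1 FPKM it had r = 0.445 (permutation p = 0.0454) and rho = 0.495 (permutation p = 0.0297). After adjustment over these 3 measures none passed (permutation adjusted p of 0.709, 0.709 and 0.136 for r, and 0.996, 0.996 and 0.0891 for rho). Without the 2 libraries farthest from the median of each measure r was -0.0342, 0.320 and 0.514. The part of the number of detected gene IDs in the shared deviations was not tested.

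**Figure D4:**
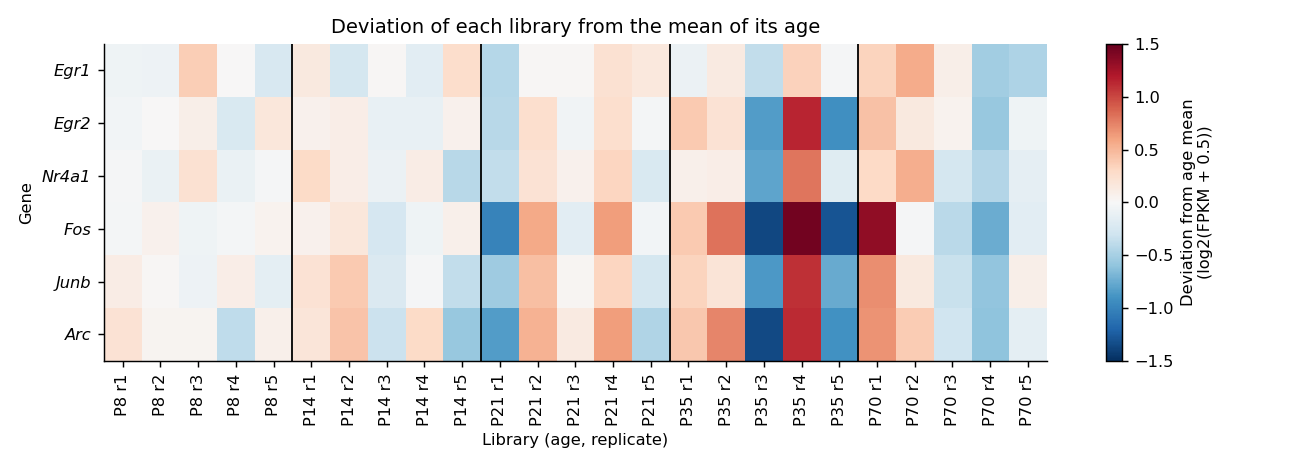
Deviation of each library from the mean of its age on the log2(FPKM + 0.5) scale (colour) for each gene (rows) and library (columns, grouped by age, r for replicate). Columns take 1 colour over most rows, red in P35 replicate 4 and blue in P35 replicate 3, and the P8 and P14 columns are mostly paler.

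Among gene IDs outside the set, ENSRNOG00000003977 had the pattern most like it. Its log2 values had r = 0.943 over the 25 libraries with the mean of the standardised values of the 6 genes. Its deviations from age means also had the highest r of all other gene IDs tested, 0.872. For comparison, each of the 6 genes had r of 0.869 (Egr1) to 0.982 (Arc) with the mean of the other 5, and 0.565 (Egr1) to 0.919 (Arc) in deviations. This gene ID averaged 2.03 ± 0.180 FPKM at P8 and 4.18 ± 1.05 at P14 (SD, n = 5). It averaged 7.81 ± 2.17 at P21, 7.00 ± 4.04 at P35 and 5.27 ± 2.09 at P70. Second over all values was ENSRNOG00000033433, with r = 0.941. It ranked 4 in deviations, with r = 0.793, and was at 0.305 ± 0.0801 FPKM at P8 and 1.34 ± 0.326 at P21 (SD, n = 5). The others of the 8 highest in deviations differed in course from P8 to P14. ENSRNOG00000003300 (rank 2, r = 0.868) and ENSRNOG00000002837 (rank 6) were not called (limma adjusted p = 0.372 and 0.777). ENSRNOG00000013090 and ENSRNOG00000019822 (ranks 3 and 7) were called upward, by 0.75 and 0.74 log2 units. ENSRNOG00000021548 and ENSRNOG00000000169 (ranks 5 and 8) were called downward, by -0.74 and -0.36. The correlations were ranked over all tested gene IDs, so they are descriptions and carry no test.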

How the data were processed

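RNA sequencing of rat prefrontal cortex gave 25 libraries, 5 per age, grouped by the age in their labels. Per the labels' protocols, ribosomal RNA was depleted and short single-end reads were aligned to rn4 with GSNAP. BWA 0.6.1, Cufflinks and bedtools also appear in the submitters' processing notes, without their roles. No annotation release, strand setting or filter is stated there. Without strand, reads of overlapping genes cannot be told apart. The authors deposited 1 table of FPKM values per Ensembl gene ID and library, used as deposited. FPKM is relative, so an abundant transcript lowers all other values of its library.

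Gene IDs with at least 1 FPKM in at least 5 libraries (14128 of 29516) were tested on log2(FPKM + 0.5) with limma 3.58.1 (R 4.3.3). All 25 libraries entered 1 fit with 1 mean per age (20 residual degrees of freedom) and empirical Bayes moderation with a trend, with two-sided tests whose p-values were adjusted by Benjamini-Hochberg over every tested gene ID. The test was tried on simulated data first. Correlations within ages and log2 ratios of pairs of genes were tested by permutation (numpy 2.4.6, with ranks from scipy 1.17.1). Relative depth came from the most frequent ratio among sparse gene IDs in 300 pairs of libraries, and 0 pairs were off the fitted log depths by over 0.001. Recovered reads were used to describe depth only. No 2 columns were identical (0 pairs). Replicate numbers follow accession order and pair nothing. Alternatives were pseudocounts of 0.1 and 1, other filters and scalings, no trend, fewer ages, a random block and each library left out.

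The genes, lists and tests were chosen with earlier results of these data known. Genes named were the 6 genes and, by rule, the gene IDs with the highest correlation to their mean. The rule took 8 per measure, given by ID because IDs could not be paired with names. Levels are printed for the 2 that were among the 8 of both measures. Lists of other immediate early genes, activity-regulated effectors, signalling genes, glucocorticoid response, heat shock and cell type markers could not be matched and were not analysed here. The relation without P35 replicate 4 and the ratio tests were chosen after seeing the data.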

Additional observations from a re-analysis of the deposited data

Results flagged for a closer look

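In 30 groups of 5 values, 1 per gene and age, a library whose gap to its nearest neighbour took up most of the range of the group was looked for, and 2 were found, where chance gives about 1.5. Fos was at 7.26 FPKM in P70 replicate 1, against 1.35 to 2.55 in the other 4 libraries. Without that library Fos averaged 2.001 ± 0.521 FPKM at P70 (SD, n = 4), and its log2 change from P8 was 1.03 in place of 1.36 (limma adjusted p = 0.0456). Egr2, Junb and Arc were also highest in this library at P70. For Nr4a1 it was P8 replicate 3, at 1.05 FPKM, while the other 4 libraries held 0.737 to 0.810. Without that library its rise from P8 to P14 was 1.32 log2 units (limma adjusted p = 0.0002). In the same library Egr1 was highest at P8, while Fos was lowest.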

How the results depend on the processing

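Of 1242 log2 changes recomputed for the 6 genes, 1178 kept direction and side of the threshold, 27 lost a call, 22 gained one and 15 changed sign, all 15 in P35 minus P21, P70 minus P21 or P70 minus P35. The number of genes called in P70 minus P8 and in the F-test was 6 without any 1 library, and no gene was called in P35 minus P21 or P70 minus P35 under any alternative that was run.

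From P8 to P14 the count of 5 became 6 with a pseudocount of 0.1, quantile normalization, median-of-ratios scaling, no trend or only the 2 ages, and 4 with equal FPKM totals. It became 3 with a mean of at least 5 FPKM, which leaves Egr2, Fos and Nr4a1 untested, and 4 to 6 with 1 library left out. That filter also gave 3 in P70 minus P8 and in the F-test. From P14 to P21 the count of 2 became 1 with a pseudocount of 0.1 or no filter, 0 with equal FPKM totals, and 1 to 3 with 1 library left out. In P70 minus P21 the count of 0 became 1 without P21 replicate 1 or P70 replicate 2, for a range of 0 to 1. The first title number never recurs across ages, so it pairs nothing. As a random replicate block (consensus correlation 0.33) it gave 3 calls from P8 to P14, where Fos (adjusted p = 0.0562) and Junb (0.110) were lost, 0 from P14 to P21, and 5 from P8 to P70, where Egr2 was lost (0.0572). Egr2 also missed in P70 minus P8 with equal FPKM totals (0.0515), which moved the median change of all gene IDs from P8 to P14 from -0.06 to 0.18.

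With 1 library left out, P35 minus P21 ran from -0.19 to 0.0061 for Egr1, -0.62 to 0.080 for Fos, -0.086 to 0.43 for Egr2, -0.19 to 0.21 for Nr4a1, -0.073 to 0.54 for Arc and -0.12 to 0.37 for Junb. Junb ran from -0.49 to 0.0027 in P70 minus P35, and from -0.29 to 0.034 in P70 minus P21, where equal FPKM totals gave 0.066. Of the 15 pairs related within ages, 12 passed after median-of-ratios scaling and 1 within first title numbers. Except where a setting tested fewer genes or libraries, the cause was not tested. Depth limits Egr2 most, at 3 to 17 reads per library at P8.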
